A study of Mus musculus with 12 samples.

Results

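The promoter-TSS peaks are stretches of chromatin carrying acetylated lysine 27 of histone H3 (H3K27ac) that lie at a transcription start site (TSS) in mouse embryonic stem (ES) cells. They were taken from 4 deposited peak lists as every peak whose centre lay within 1000 bp of the nearest TSS and whose detailed annotation began with the words promoter-TSS rather than CpG. The rule found 18414 members among the 66607 H3K27ac peaks of the 4 lists. The control list held 5516 members of 21418 peaks, the GW3965 list 4723 of 17759, the LG268 list 3762 of 12472 and the RA list 4413 of 14958. Members thus made up 25.8% of the control peaks, 26.6% with GW3965, 30.2% with LG268 and 29.5% with RA. They were set against the peaks within 1000 bp of a TSS whose detailed annotation began with CpG, which numbered 3038, 2764, 2364 and 2633 in the same order.

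The cells were wild-type E14 ES cells, a feeder-free line grown on gelatin with serum and leukemia inhibitory factor. The control group received the vehicle dimethylsulfoxide. The ligand groups received GW3965, LG268 or RA (all-trans retinoic acid) at 1 µM for 24 h. GW3965 is an agonist of the liver X receptors (LXR), LG268 of the retinoid X receptors (RXR), and RA of the retinoic acid receptors. Each of these groups has 1 H3K27ac library and 1 RXR library, from chromatin immunoprecipitation and sequencing. RXR lists of cells at day 8 and day 16, with 2 libraries each, complete the 12 lists; the labels describe neural differentiation through embryoid bodies with RA. With 1 library per treatment no difference between treatments can be tested, so every test below compares kinds of peak within lists. Peaks of a list share their library and some share a gene, and the p-values and intervals cover counting error only. Read depth is not given in these lists, and its part in their different lengths was not tested.

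H3K27ac marks active promoters and enhancers, where acetyltransferases such as p300 and CBP deposit it on nucleosomes beside the open stretch where transcription starts. Promoters of mammals fall into broad types. CpG-island promoters are rich in CG dinucleotides, escape DNA methylation and serve most housekeeping and developmental genes. CpG-poor promoters are often methylated when silent and more often carry a TATA box and serve genes of particular cell types.

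The annotation did not separate these types of promoter. None of the 5517 control peaks with a promoter-TSS annotation carried a CpG label, whereas 3344 of 7722 control peaks annotated as intronic and 620 of 4710 annotated as intergenic did. Every CpG-annotated peak within 1000 bp of a TSS was annotated as intronic and lay downstream of it, from +101 bp outward. The CpG label near a TSS therefore marked peaks in introns, and the members were peaks that the program placed at a start site whatever their sequence. The RefSeq promoter sequences, which run from 250 bases before the start to 50 bases from it on in build GRCm38.p6, were used to describe the members directly. A window was found for 4648 of the 5516 control members and for 2446 of the 3038 control CpG-annotated peaks. A promoter was called CpG-poor below a CpG observed/expected ratio of 0.48, CpG-rich from a ratio of 0.75 with a GC content of at least 55%, and intermediate otherwise. By these limits, chosen after the annotation was seen, 2886 control members (62.1%, 95% Clopper-Pearson interval 60.7 to 63.5) were CpG-rich, 1440 (31.0%) intermediate and 322 (6.93%, 6.21 to 7.70) CpG-poor. Of the CpG-annotated control peaks 61.3% were CpG-rich and 4.29% CpG-poor. Among all 32851 RefSeq windows 22% were CpG-rich and 56.8% CpG-poor. The median ratio was 0.849 for members, 0.834 for CpG-annotated peaks and 0.384 for all windows. The data thus go against calling the members promoters outside CpG islands, and they are called promoter-TSS peaks here.

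**Figure D1:**
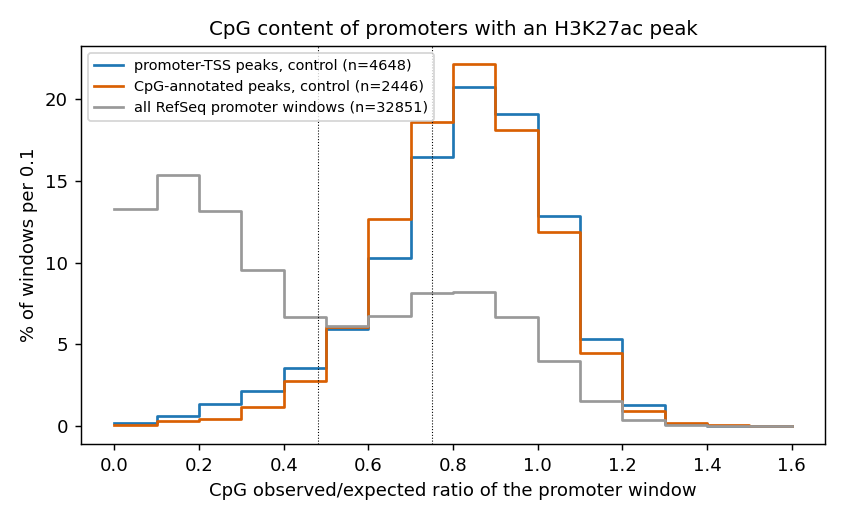
Distribution of the CpG observed/expected ratio (horizontal axis, bins of 0.1) of the RefSeq promoter window at control promoter-TSS peaks, at control CpG-annotated peaks and over all RefSeq windows, as a percentage of windows. Dotted lines stand at 0.48 and 0.75. The curves of both kinds of peak lie almost on each other, with medians of 0.849 and 0.834, and the curve of all windows has its median at 0.384.

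The range of promoters among the members is shown by 5 windows, printed from 5′ to 3′ on the gene's strand with every CG dinucleotide in capitals (RefSeq, GRCm38.p6). Flcn, which encodes the lysosomal signalling protein folliculin, had the member region with the highest mean percentile over the lists; its window is chr11:59809990-59810289, minus strand, with 20 CG dinucleotides. Fasn, which encodes fatty acid synthase, had the strongest RXR peak at a member; its window is chr11:120824498-120824797, minus strand, with 39. Zfp963, a zinc finger gene, had the CpG-poor member region with the highest mean percentile over the 4 lists; its window is chr8:69749913-69750212, minus strand, with 9. Nrip1, a nuclear receptor corepressor induced by retinoic acid, had a CpG-poor member in all 4 lists; its window is chr16:76373778-76374077, minus strand, with 6. Pou5f1, which encodes the pluripotency factor Oct4, had a CpG-poor member in the control list alone; its window is chr17:35505782-35506081, plus strand, with 11.
Flcn: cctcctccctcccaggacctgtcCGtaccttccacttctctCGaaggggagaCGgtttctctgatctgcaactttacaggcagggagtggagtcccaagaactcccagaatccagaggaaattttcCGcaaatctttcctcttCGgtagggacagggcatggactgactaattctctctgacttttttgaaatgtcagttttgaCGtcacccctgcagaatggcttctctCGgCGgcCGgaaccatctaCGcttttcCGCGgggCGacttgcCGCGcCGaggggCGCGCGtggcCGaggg
Fasn: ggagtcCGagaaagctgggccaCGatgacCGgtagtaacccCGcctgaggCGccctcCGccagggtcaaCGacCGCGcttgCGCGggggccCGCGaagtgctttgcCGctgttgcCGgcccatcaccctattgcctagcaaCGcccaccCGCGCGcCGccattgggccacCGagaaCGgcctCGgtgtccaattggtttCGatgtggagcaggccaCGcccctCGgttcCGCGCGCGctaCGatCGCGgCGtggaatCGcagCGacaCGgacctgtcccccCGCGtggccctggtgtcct
Zfp963: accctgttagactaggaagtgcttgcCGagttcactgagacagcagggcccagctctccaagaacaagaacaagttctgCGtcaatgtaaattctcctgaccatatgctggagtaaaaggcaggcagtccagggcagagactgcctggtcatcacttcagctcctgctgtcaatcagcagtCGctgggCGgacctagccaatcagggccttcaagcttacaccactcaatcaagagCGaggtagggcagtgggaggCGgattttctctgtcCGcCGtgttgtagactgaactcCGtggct
Nrip1: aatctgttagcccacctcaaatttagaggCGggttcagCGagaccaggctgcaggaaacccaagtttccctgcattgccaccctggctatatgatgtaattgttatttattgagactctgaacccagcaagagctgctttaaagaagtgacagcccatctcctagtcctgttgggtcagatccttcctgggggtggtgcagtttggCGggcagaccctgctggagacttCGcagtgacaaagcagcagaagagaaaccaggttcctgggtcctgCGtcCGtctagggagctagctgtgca
Pou5f1: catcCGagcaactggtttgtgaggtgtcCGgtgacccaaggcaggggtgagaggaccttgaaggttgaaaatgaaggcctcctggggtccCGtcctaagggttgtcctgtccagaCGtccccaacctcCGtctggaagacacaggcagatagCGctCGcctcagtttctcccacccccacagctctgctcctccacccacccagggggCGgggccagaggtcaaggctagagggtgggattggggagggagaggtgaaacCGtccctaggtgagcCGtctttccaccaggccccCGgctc
The capitals crowd into the Fasn window along its whole length and gather near the start in the Flcn window. In the Zfp963 window most lie in its later part, and in the Nrip1 and Pou5f1 windows they are scattered. The observed/expected ratio was 0.83 for Flcn, 1.09 for Fasn, 0.41 for Zfp963, 0.29 for Nrip1 and 0.37 for Pou5f1.

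Short motifs were counted on both strands of the distinct windows, 4393 for control members, 2417 for CpG-annotated peaks and 32851 in all. The GC box GGGCGG, the site of Sp1-family factors, occurred in 71.8% of member windows, 78.2% of CpG-annotated windows and 35.7% of all windows. The ETS site CCGGAAG occurred in 23.6% of member windows (95% interval 22.4 to 24.9), 18.3% of CpG-annotated windows (16.8 to 19.9) and 8.86% of all windows. The TATA box TATAAA occurred in 4.89% of member windows, 5.13% of CpG-annotated windows and 13.6% of all windows. Member promoters were thus rich in GC boxes and ETS sites and low in TATA boxes against promoters at large, which have another CpG content. Among CpG-rich windows alone, the GC box occurred in 80.0% of member and 80.8% of all windows, the TATA box in 3.45% and 3.80%, and the ETS site in 26.5% and 20.3%. The CCAAT box was found in 37.1% of member windows and 37.4% of all windows, the E box CACGTG in 10.7% and 7.15%, the cyclic AMP response element TGACGTCA in 4.07% and 1.79%, and the Klf site GGGNGTGG in 22.8% and 17.6%. Among CpG-rich windows alone these differences shrank or turned. The E box occurred in 12.0% of member and 11.8% of all windows, the cyclic AMP response element in 4.95% and 4.05%, and the Klf site in 23.2% and 24.1%. In the 305 distinct CpG-poor member windows the GC box was present in 38.4% against 11.3% of all 18652 CpG-poor windows. There the octamer ATTTGCAT, which Oct4 and related factors bind, was present in 3.93% (2.05 to 6.77) against 2.05%, and the TATA box in 8.20% against 18.9%. Over members of every CpG content the octamer was lower, in 1.27% of member windows against 1.74% of all windows. The Esrrb site TCAAGGTCA occurred in 0.328% of CpG-poor member windows against 0.611% of all CpG-poor windows. Over every CpG content it occurred in 0.182% of member and 0.423% of all windows. Motifs overlap in base composition with the classes themselves, and a match is a description of the letters only.

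Members sat on both sides of the start, with a low on each side of it. In the control list 13.3% of members had their centre 300 to 400 bp upstream, 6.54% had it 100 to 200 bp upstream and 14.3% had it within the first 100 bp downstream, followed by 5.35% at 100 to 200 bp and 8.09% at 200 to 300 bp downstream. Members lay upstream in 63.2% of control, 62.3% of GW3965, 59.3% of LG268 and 60.7% of RA cases. The median position was -164, -144, -116 and -128 bp in the same order, against +326, +334.5, +320 and +326 bp for CpG-annotated peaks. Between 22.2% (control) and 27% (LG268) of members lay more than 100 bp downstream of the nearest TSS, where the promoter-TSS label refers to another transcript start. All promoter-TSS peaks lay inside the 1000 bp limit, and the 36 control members within 50 bp of it had a median width of 361.5 bp and a median score percentile of 39.6.

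**Figure D2:**
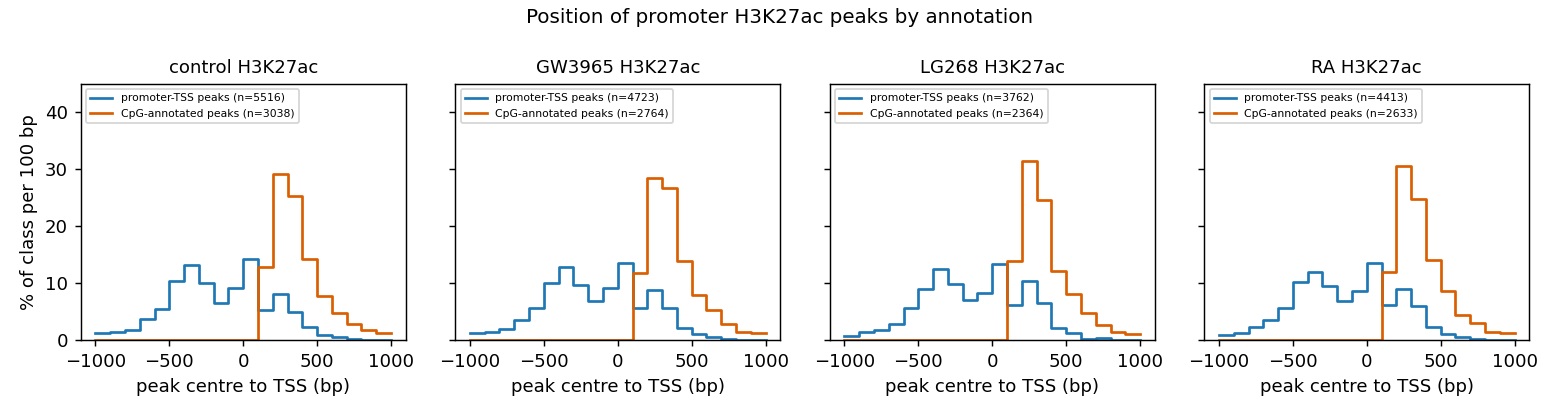
Distance from peak centre to the nearest TSS (horizontal axis, bp, bins of 100 bp) for promoter-TSS and CpG-annotated peaks in each of the 4 H3K27ac lists, as a percentage of each kind. Promoter-TSS peaks lie on both sides of the start with dips at -200 to -100 bp and at +100 to +200 bp, and CpG-annotated peaks begin at +101 bp.

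Members were narrower and ranked lower than CpG-annotated peaks in each list. The median width was 417.5 bp for control, 435 bp for GW3965, 386 bp for LG268 and 401 bp for RA members, against 517, 501, 432 and 465 bp for CpG-annotated peaks. Scores were turned into percentiles of their own list, where 100 is the highest peak. The median percentile was 61.6, 60.6, 55.4 and 57.1 for members and 74.2, 70.4, 63.6 and 66.6 for CpG-annotated peaks in the order control, GW3965, LG268 and RA. The remaining peaks within 1000 bp of a TSS, with other annotations, had median percentiles of 61.2, 59.9, 54.3 and 54.1. Their median widths were 447.5, 445, 398 and 411 bp. A rank below the CpG-annotated peaks was thus not particular to the members. Peaks of the control list that lay further than 1000 bp from any TSS had a median percentile of 28.1. Of the 100 highest peaks of each list 36, 31, 36 and 34 were members and 28, 27, 22 and 19 were CpG-annotated. As a share of their kind these were 0.653%, 0.656%, 0.957% and 0.770% of the members and 0.922%, 0.977%, 0.931% and 0.722% of the CpG-annotated peaks.

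The highest members lay at genes of unlike function, and several of them stood near the top of all 4 lists. Flcn ranked 5th in control, 2nd in GW3965, 2nd in LG268 and 25th in RA, with scores of 100.4, 111.6, 69.9 and 56.2. Atp6v0c, a proton-channel subunit of the vacuolar ATPase, had percentiles between 99.8 and 99.96. Upf3a, a factor of nonsense-mediated mRNA decay, lay between 99.86 and 99.96. Both also had CpG-rich promoters. Klf7, a zinc finger transcription factor, had a member 643 to 676 bp upstream at percentiles of 99.7, 99.9, 99.8 and 99.8, while its downstream peak in the gene reached 22.6, 39.9, 1.6 and 63.0. The upstream peak thus ranked above the downstream one in each list. The remaining regions among the 10 highest called in all 4 lists belonged to 0610009B22Rik, Orc6 of the origin recognition complex, Hexim2, the splicing GTPase gene Eftud2, Stam2 and the mitochondrial ribosome gene Mrpl27.

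The first comparison asked how many control members were called again with each ligand, which was fewer than for CpG-annotated peaks. With GW3965 4329 of 5516 control members (78.5%, 77.4 to 79.6) overlapped a peak by at least 1 bp, with LG268 3514 (63.7%, 62.4 to 65.0) and with RA 4002 (72.6%, 71.4 to 73.7). Over all control peaks these shares were 68.8% with GW3965, 51.8% with LG268 and 60.2% with RA. The CpG-annotated peaks reached 88.8%, 75.8% and 83.6%. The odds ratio of members against CpG-annotated peaks was 0.458 (0.402 to 0.522, adjusted p = 2.03e-34) with GW3965, 0.561 (0.508 to 0.620, adjusted p = 5.21e-31) with LG268 and 0.518 (0.463 to 0.580, adjusted p = 8.91e-32) with RA (two-sided Fisher's exact test, Benjamini-Hochberg over 3 ligands). Members were thus called again more often than peaks at large and less often than CpG-annotated peaks with each ligand. The order of the ligands, GW3965 first and LG268 last, followed the length of the ligand lists in both kinds of peak, so it cannot be told apart from list length.

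The difference became smaller when peaks of like score were compared and when a ligand peak was accepted at a distance. Control members not called again with GW3965 had a median width of 270 bp and a median percentile of 30.2, against 482 bp and 69.7 for those called again. The control list was therefore cut by score into 4 bins of equal size. Within these bins, the Mantel-Haenszel odds ratio rose to 0.719 (0.618 to 0.835, adjusted p = 5.95e-05) with GW3965, 0.818 (0.715 to 0.936, adjusted p = 0.00578) with RA and 0.889 (0.786 to 1.00, adjusted p = 0.0630) with LG268 (chi-square test). In the highest bin the share of members called again was 99.5% with GW3965, 97.1% with LG268 and 98.6% with RA, and in the lowest 41.3%, 19.8% and 30.5%. When a ligand peak within 1 kb counted as found, the odds ratio was 0.938 with GW3965, 1.12 with LG268 and 1.01 with RA (Fisher's exact tests, adjusted p = 0.721, 0.201 and 0.941). Counted by gene, with any peak within 1000 bp of the TSS as found, 4287 genes with members and no CpG-annotated peak in control were set against 2070 genes with the reverse. Their odds ratio was 0.649 (adjusted p = 1.47e-06) with GW3965, 0.867 (adjusted p = 0.0282) with LG268 and 0.775 (adjusted p = 0.000990) with RA (Fisher's exact tests). With a ligand peak accepted within 1 kb of the control peak, no difference was thus past the threshold. By gene the lower share of members stayed past it with each ligand, and within the score bins with GW3965 and RA.

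**Figure D3:**
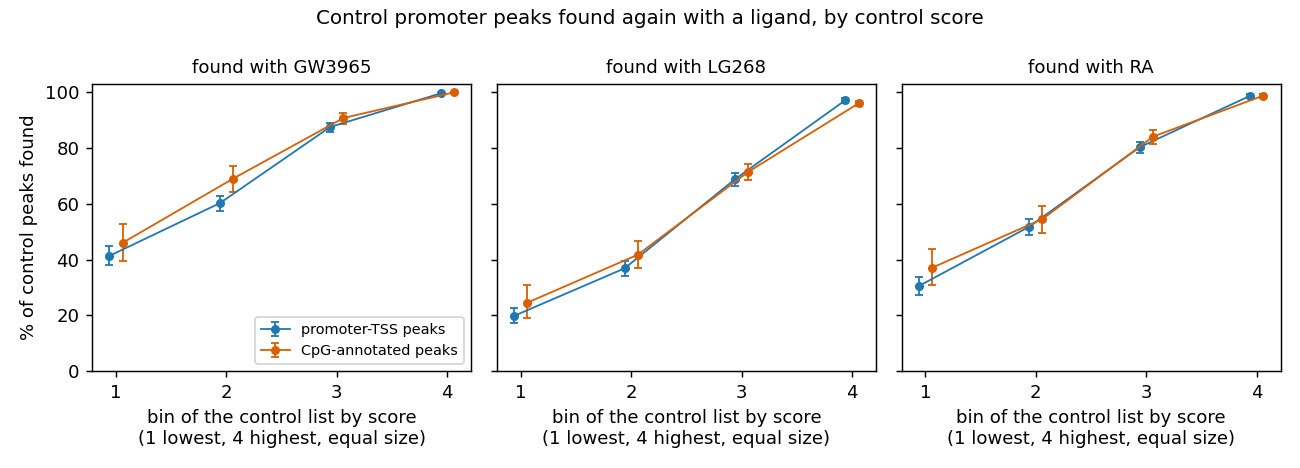
Percentage of control promoter-TSS and CpG-annotated peaks found again with each ligand (vertical axis) by bin of the control list by score (horizontal axis, 4 bins of equal size, the highest last), with 95% Clopper-Pearson intervals. The share climbs from 41.3% to 99.5% of members with GW3965, from 19.8% to 97.1% with LG268 and from 30.5% to 98.6% with RA, and in the second bin with GW3965 the share is 60.2% of members and 69.0% of CpG-annotated peaks.

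The peaks of all lists were then merged into regions to see which promoters were called in every treatment. There were 6189 regions made of promoter-TSS peaks and 3715 made of CpG-annotated peaks, and a further 466 held both kinds and stayed out of the test. Of the member regions 3081 (49.8%, 48.5 to 51) had a peak in all 4 lists, 905 in 3, 886 in 2 and 1317 (21.3%) in 1. Over all 25396 merged H3K27ac regions 36.2% were called in all 4 lists and 34.9% in 1 list. CpG-annotated regions were called in all 4 lists in 2522 cases (67.9%, 66.4 to 69.4) and in 1 list in 301 (8.10%). The odds ratio of members against CpG-annotated regions for a call in all 4 lists was 0.469 (0.431 to 0.511, p = 2.44e-70, two-sided Fisher's exact test). It was 0.965 when a peak within 1 kb counted (p = 0.479, Fisher's exact test). Member regions called in all 4 lists had a median width of 657 bp and a median mean percentile of 69.4, and those called in 1 list 263 bp and 23.5.

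**Figure D4:**
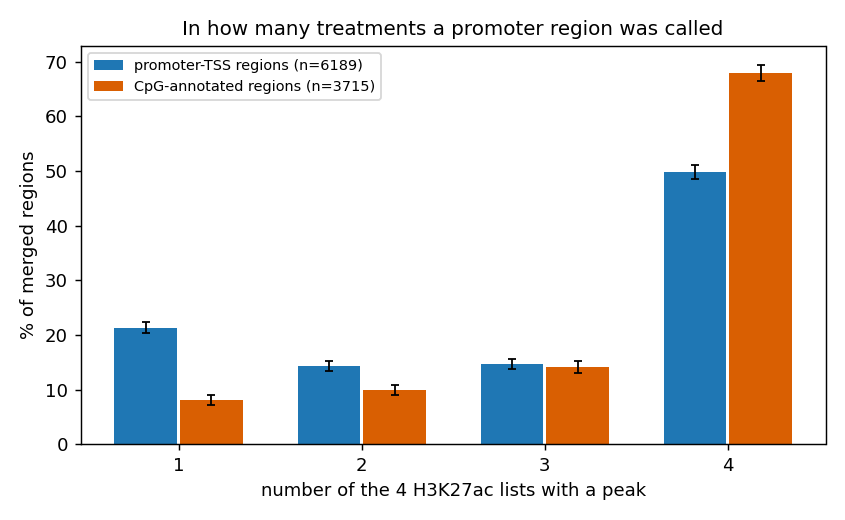
Percentage of merged promoter-TSS regions (n = 6189) and CpG-annotated regions (n = 3715) by the number of the 4 H3K27ac lists in which they had a peak, with 95% Clopper-Pearson intervals. In all 4 lists stand 49.8% of the member regions and 67.9% of the CpG-annotated regions, and in 1 list 21.3% and 8.10%.

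Most member regions of a single list lay beside a peak that other lists also had. Control alone held 750 member regions, GW3965 alone 287, LG268 alone 89 and RA alone 191. The share of each pattern over all merged H3K27ac regions is not given here. Neither is the share of all single-list regions with a peak of another list nearby. The counts are therefore set against CpG-annotated regions only. Of the 1317 member regions of a single list, 624 (47.4%, 44.7 to 50.1) had a peak within 1 kb in every other list and 331 (25.1%, 22.8 to 27.6) had none in any other. Of the 301 CpG-annotated regions of a single list 60 (19.9%, 15.6 to 24.9) had a neighbour in every other list and 161 (53.5%, 47.7 to 59.2) had none. Sumo2, which encodes a small ubiquitin-like modifier, shows the first case. Its control-only peak 75 bp downstream of the start stood at percentile 81.2, and an upstream peak was called in control, GW3965, LG268 and RA at percentiles 90.5, 78.1, 56.3 and 84.4. Pum2, an RNA-binding repressor of translation, likewise had a control-only peak at percentile 72.1 beside an upstream member at 69.3, 64.2, 58.6 and 54.7. Igfbp3, which encodes an insulin-like growth factor binding protein, is the other case. Its control member at percentile 74.5 had a neighbour in the control list, at 64.2, and no peak within 1000 bp of its start in any ligand list. Smc6, of a complex of DNA repair, had a control-only member at 79.6 that faced the promoter of Gen1, where every list had a peak.

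Most members called with a single ligand had a peak of another list within 1 kb. Such a peak was missing for 63 of the 287 GW3965-only regions (95% interval 17.3 to 27.2%), 14 of the 89 LG268-only (8.88 to 24.98%) and 42 of the 191 RA-only regions (16.3 to 28.5%). For CpG-annotated regions the counts without such a neighbour were 25 of 56 (31.3 to 58.5%), 11 of 20 (31.5 to 76.9%) and 19 of 33 (39.2 to 74.5%). The same shares over all merged H3K27ac regions are not given here, so these counts are no result about the members. With GW3965 428 members (9.06%) overlapped no control peak, with LG268 191 (5.08%) and with RA 324 (7.34%). Over all peaks 16.9% of the GW3965, 8.74% of the LG268 and 12% of the RA list overlapped no control peak, against 3.51%, 1.86% and 2.81% of CpG-annotated peaks. The members' share thus stood between that of CpG-annotated peaks and that of the lists at large. Among RA-only regions the highest belonged to Cdc42bpg, a kinase acting with Cdc42, at percentile 70.3, and its downstream peak stood at 44.7, 33.3 and 20.3 in control, GW3965 and LG268. Grip1, a synaptic scaffold gene, had an RA-only member at 64.4 beside a downstream peak that all 4 lists held. The highest GW3965-only region was the far upstream part of the Fasn promoter, 954 bp before the start, at percentile 72.5.

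Of the 6189 member regions 28 (0.452%, 0.301 to 0.653) were called with all 3 ligands and not in control, against 11 of 3715 CpG-annotated regions (0.296%, 0.148 to 0.529). These intervals overlap. The share of this call pattern over all merged H3K27ac regions is not given here, so the count is no result about the members. No control peak lay within 1 kb of 10 of these member regions and of 7 of the CpG-annotated ones. The highest belonged to 4732415M23Rik, a gene without an assigned function in the files, at percentiles of 30.8 with GW3965, 79.2 with LG268 and 77.5 with RA. With LG268 and RA the member's centre lay 364 and 407 bp downstream of the nearest start, that of this gene. Its promoter-TSS label there refers to another transcript start. No control peak was assigned to 4732415M23Rik, and the neighbouring promoter of Chmp1a had a peak in every list. An RXR peak overlapped this member with LG268, where it scored 35.0, and with RA, where it scored 30.6. Met, the receptor of hepatocyte growth factor, had percentiles of 43.6, 45.6 and 66.1, and it had no control peak nearby. Others in this group, Scamp1 and Prodh among them, had a control peak nearby that did not overlap.

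Among the members, CpG-poor promoters were narrower, ranked lower and were called again less often than CpG-rich ones. The 322 CpG-poor control members had a median width of 350 bp and a median percentile of 44.1, against 434 bp and 66.1 for the 2886 CpG-rich ones. They were called again with GW3965 in 63.7% against 82.3% (odds ratio 0.378, 0.295 to 0.483, adjusted p = 1.36e-13), with LG268 in 46.6% against 68.5% (0.400, 0.317 to 0.505, adjusted p = 2.32e-14) and with RA in 55.9% against 76.7% (0.385, 0.304 to 0.487, adjusted p = 2.32e-14; two-sided Fisher's exact tests). Within the bins by score the Mantel-Haenszel odds ratios were 0.660 (0.495 to 0.878, adjusted p = 0.0118), 0.727 (0.546 to 0.970, adjusted p = 0.0360) and 0.674 (0.508 to 0.894, adjusted p = 0.0118) in the same order (chi-square test). With a peak within 1 kb counted as found, the shares were 80.7% of CpG-poor against 96.0% of CpG-rich members with GW3965, 61.5% against 89.1% with LG268 and 73.6% against 93.2% with RA. The odds ratios were then 0.174, 0.195 and 0.204 (Fisher's exact tests, adjusted p = 7.90e-21, 1.98e-32 and 1.94e-23), so the lower share of CpG-poor members was also found at this distance. For regions, the CpG-poor and CpG-rich members were merged without the other promoter peaks, so that regions also holding a CpG-annotated peak were kept. Of 457 CpG-poor regions made in this way 154 (33.7%, 29.4 to 38.2) were called in all 4 lists, against 1928 of 3331 CpG-rich regions (57.9%, 56.2 to 59.6; odds ratio 0.370, p = 2.78e-22, Fisher's exact test). In the highest bin all 53 CpG-poor members were found with GW3965 and with RA and 52 with LG268, and in the lowest 30, 21 and 14 of 93.

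The CpG-poor members called in all 4 lists reached high ranks at a few genes. Zfp963 stood at percentiles of 98.1 in control, 99.0 in GW3965, 99.6 in LG268 and 99.5 in RA, and its neighbour Zfp869 at 98.8, 98.3, 98.9 and 99.5. Kptn, of the KICSTOR complex of amino acid signalling, had 96.1, 87.9, 92.0 and 97.1. Tor1aip1, a nuclear membrane protein gene, had 92.0, 97.3, 91.0 and 91.7, and Bak1, a mitochondrial effector of apoptosis, 94.7, 82.9, 87.9 and 96.0. These genes were chosen for their high mean percentile, and their lowest place was that of Bak1 with GW3965. CpG-poor regions of 1 list ranked lower: the highest were Mvb12b in control at 70.4, Zfp846 in GW3965 at 38.9, Slfn9 in LG268 at 46.3 and 1700113H08Rik in RA at 56.1. Dnmt3a, a DNA methyltransferase gene, had a CpG-poor GW3965-only member at 30.7, and Pnrc1, a nuclear receptor coregulator, a control-only one at 50.2.

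Members were counted in gene lists that were written with earlier results of these data known. Percentiles below are those of the highest peak of each list that overlaps the region, whatever its annotation. Of the 14490 genes nearest to a peak in any list, 35.9% had a member in control, 31.2% in GW3965, 25% in LG268 and 29.0% in RA. Replication-dependent histone genes, which lie in clusters and lack introns, had a member at 26, 29, 25 and 26 of 49 genes, and none had a CpG-annotated peak. Near a TSS that label fell only on peaks annotated as intronic, so genes without introns could hardly carry it. Hist2h2ab reached percentiles of 87.4, 91.5, 91.4 and 86.4, and 19 of their 35 regions were called in all 4 lists. Ribosomal protein genes had a member at 32, 27, 30 and 27 of 69, with median percentiles of 82.6, 83.0, 75.02 and 70.7, and 23 of 30 regions were called in all 4 lists. Rpl27a carried a downstream member at 96.6, 96.5, 95.9 and 90.5 and an upstream one at 82.6, 83.0, 69.7 and 50.2. Small nucleolar RNA genes, most of which sit inside host genes for ribosomal or translation proteins, had members at 11, 9, 9 and 11 of 25, at median percentiles of 94.3, 95.7, 94.0 and 90.9. Zfp genes had them at 125, 116, 106 and 106 of 330, with 92 of 158 regions in all 4 lists. MicroRNA genes had members at 38, 25, 21 and 26 of 215 and no CpG-annotated peak. Mir290, the first gene of the microRNA cluster most abundant in ES cells, had low members in all 4 lists, at percentiles of 11.1, 5.85, 17.2 and 32.1. These members lie at the annotated starts of microRNA genes. Where transcription of these genes begins was not tested, so the ranks do not describe the promoter of the cluster.

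Genes of particular cell types and states, those of ES cells among them, were counted in the same way. None of the 79 olfactory receptor genes that were nearest to a peak had a member or a CpG-annotated peak. The other lists here hold all their genes, whether or not a peak lay nearest to them, so their shares are not on the base of the 14490 genes. None of 15 genes of the two-cell-like state had a member or a CpG-annotated peak, and 2 of them were nearest to any peak. Germline genes had members at Dnmt3l and Smc1b of 29 genes, 8 of them nearest to any peak, in all 4 lists, at percentiles from 4.1 to 36.6 for Dnmt3l and 7.18 to 52.2 for Smc1b. Of 28 pluripotency genes, the markers of ES cells, 3 had a member in control, 2 in GW3965, 2 in LG268 and 1 in RA, while a further 11, 12, 7 and 8 had only a CpG-annotated or another promoter peak. Sox2 stood at 44.2, 54.7, 22.9 and 38.5 and Tbx3 at 41.1, 72.3, 6.12 and 62.9. Pou5f1 had a member in control at 13.5, and with GW3965 a peak in its first exon at 2.7. Neural, trophoblast and fibroblast marker genes had no member in any list, and none of the 8 fibroblast markers was nearest to a peak, while endoderm markers had Sparc in LG268 at 14.4 and Sox17 in RA at 4.51.

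Retinoic acid-responsive genes had members at 5, 6, 4 and 5 of 21 genes. Rarb, which encodes retinoic acid receptor beta, stood at percentiles of 42.5 in control, 41.8 in GW3965 and 68.3 in RA, with no member in LG268. A further Rarb member 554 bp upstream of the start was called in RA alone, at 38.8. The RA list thus held the highest place of the Rarb region, though ranks in lists of different length show no change by themselves. Nrip1 stood at 82.7, 86.3, 69.2 and 80.6, Meis1, a homeobox cofactor gene, at 63.6, 57.7, 78.5 and 56.8, and Zfp703 at 59.4, 17.9, 32.1 and 67.5, with no common order.

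Targets of the lipid receptors were described in the same way. LXR targets had members at 6, 4, 4 and 4 of 17 genes. The Fasn member stood at 95.5, 87.5, 81.5 and 95.2, and Scd1, a fatty acid desaturase gene, at 31.3, 49.9, 20.9 and 72.8. Arl4c had a member in control alone, at 63.5, and other promoter peaks in every list. Targets of peroxisome proliferator-activated receptors had members at 2, 3, 3 and 1 of 16 (12.5%, 18.75%, 18.75% and 6.25%), 14 of them nearest to a peak. Plin2, a lipid droplet coat protein gene with a CpG-poor promoter, stood at 42.3 in control, 48.7 in GW3965 and 26.3 in LG268. Genes of sterol synthesis had members at 8, 9, 3 and 8 of 17 (47.1%, 52.9%, 17.6% and 47.1%), 15 of them nearest to a peak. Fdft1 (squalene synthase), Cyp51, Sc5d and Nsdhl had regions in all 4 lists, and Insig1, Dhcr7 and Mvd had them in all but LG268. In the shortest list, LG268, 9 more of the 17 genes had a promoter peak of another annotation and 5 had none.

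**Figure D5:**
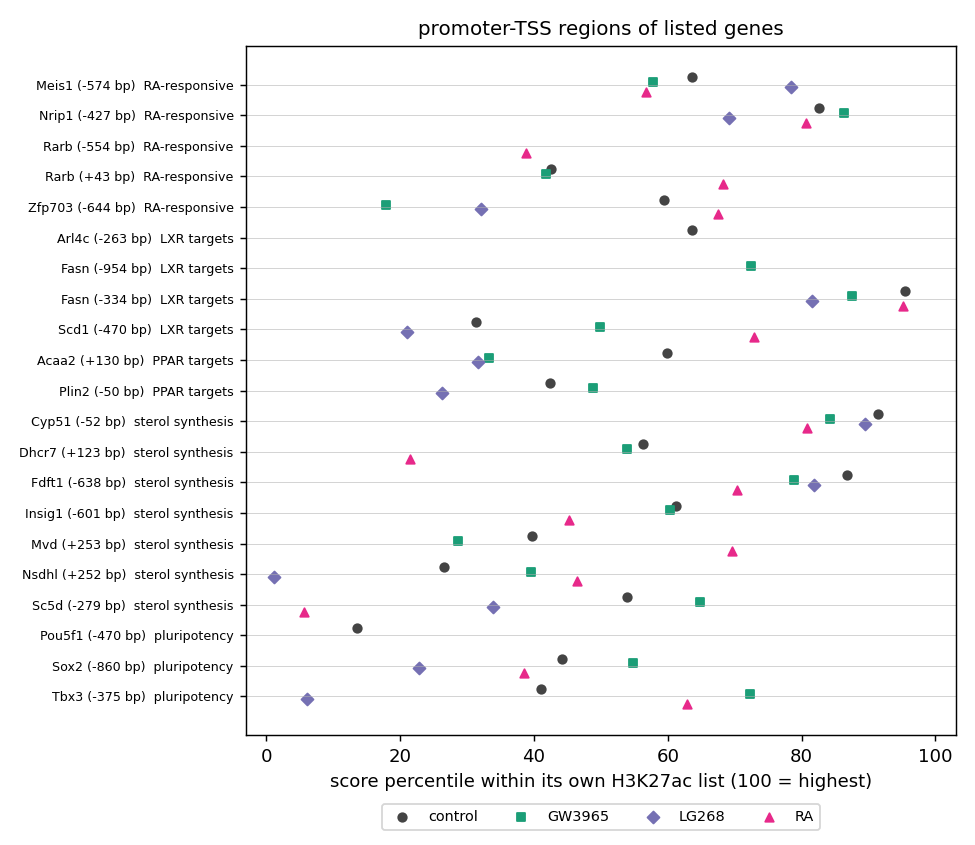
Score percentile within its own H3K27ac list (horizontal axis, 100 is the highest) of each promoter-TSS region at genes of 5 lists that are described here, with 1 mark per treatment and no mark where no peak was called. The number after each gene is the distance of the region's peak from the TSS. The Rarb region at +43 bp has its highest place with RA (68.3), and the Fasn region at -334 bp stands at 95.5 in control and 81.5 with LG268.

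RXR peaks of the same treatment were rare at members. They overlapped 102 of 5516 members in control (1.85%, 1.51 to 2.24), 32 of 4723 with GW3965 (0.678%, 0.464 to 0.955), 172 of 3762 with LG268 (4.57%, 3.93 to 5.29) and 184 of 4413 with RA (4.17%, 3.6 to 4.80). Over all H3K27ac peaks the shares were 1.62% in control, 0.963% with GW3965, 4.14% with LG268 and 3.74% with RA. Members lay slightly above these shares in control, LG268 and RA, where their intervals held the share over all peaks. With GW3965 members lay below it, and the upper end of their interval, 0.955%, was just under 0.963%. CpG-annotated peaks had 1.15%, 0.398%, 3.13% and 2.32%. The odds ratio of members against CpG-annotated peaks was 1.62 in control (1.10 to 2.38, adjusted p = 0.0198), 1.71 with GW3965 (0.859 to 3.39, adjusted p = 0.153), 1.48 with LG268 (1.12 to 1.96, adjusted p = 0.00991) and 1.83 with RA (1.37 to 2.46, adjusted p = 0.000114; two-sided Fisher's exact tests, Benjamini-Hochberg over 4 lists). With an RXR peak within 1 kb counted, it was 1.10 with LG268 and 1.14 with RA (Fisher's exact tests, adjusted p = 0.507 and 0.410). With peaks of both kinds within 500 bp of the TSS, it was 1.50 in control and 1.31 with LG268 (Fisher's exact tests, adjusted p = 0.0961 for both). The RXR lists differ in length, with 1089, 940, 2089 and 1970 peaks, so the shares of different treatments are not comparable. Among control members 3 of 322 CpG-poor (0.932%) and 61 of 2886 CpG-rich ones (2.11%) had an RXR peak (odds ratio 0.436, 0.136 to 1.40, adjusted p = 0.410, Fisher's exact test).

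A few promoters recurred among the members with the strongest RXR peaks. Fasn, Knop1 and the promoter shared by Rbks and Bre did so in each treatment. The RXR peak at the Fasn member scored 59.0 in control, 44.4 with GW3965, 75.4 with LG268 and 79.3 with RA, the highest at any member each time. Among all RXR peaks of its list it ranked 19th, 12th, 21st and 17th, so stronger RXR peaks lay outside the members. At Knop1, a nucleolar protein gene, RXR scored 54.0, 14.9, 38.65 and 53.4, although the H3K27ac member there stood at only 63.9, 59.1, 39.2 and 46.5 of its list. The shared promoter of Rbks, which encodes ribokinase, and Bre had RXR scores of 38.3, 13.8, 37.0 and 50.01. Rarb had an RXR score of 33.0 in control, 9.96 with GW3965 and 54.8 with RA, where 1 RXR peak spanned both of its members. Utp14b scored 17.9, 18.04 and 49.9 in control, GW3965 and LG268. Other high RXR scores lay at Etfb, an electron transfer flavoprotein gene, at 18.5 in control, at the fatty acid oxidation gene Acaa2, at 17.3 in control and 27.8 with LG268, and at Klf11 with LG268, at 25.2. Scores of different lists are not on a common scale, and only their order within a list is described. In the RXR lists of differentiating cells, which come from other culture conditions, 32 (0.580%) and 106 (1.92%) of the 5516 control members overlapped a peak in the day 8 libraries, against 0.362% and 1.25% of CpG-annotated peaks. In the day 16 libraries 6 and 5 members did (0.109% and 0.0906%), against 3 and 2 of the 3038 CpG-annotated peaks.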

How the data were processed

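The members and gene lists were chosen with earlier results of these data known. Reads were aligned with BWA 0.6.0, peaks called with MACS2 2.0.10 and annotated with HOMER 4.2, per the submitters' processing notes, which list the builds mm9 and mm10; the deposited coordinates are given as the files have them, and the file headers name mm10. Each list is 1 library. The peak score is the authors' deposited score, whose scale is not given in the sources used here, so it was used only to rank peaks within a list. The deposited distance to the TSS is in bp. Read depth is not given in these lists. Overlap required 1 bp. Overlapping promoter peaks of the 4 H3K27ac lists were merged, and a region counted as called in a list when any H3K27ac peak of that list overlapped it. Shares have exact Clopper-Pearson 95% intervals. Kinds of peak were compared by two-sided Fisher's exact tests, with Benjamini-Hochberg adjustment and a threshold of 0.05, and within 4 equal bins by score or width by Mantel-Haenszel odds ratios (Python 3.11.15, scipy 1.17.1, statsmodels 0.14.6). Overlap and testing were checked on simulated peaks with planted shares. A RefSeq promoter window was matched by gene, or else by position, within 1000 bp of the peak centre. Chromosome 18 has no window here. Some genes of the lists are not reported here by name. Named genes were the 10 highest members of each list and of each kind of call pattern, the genes of the lists, and the 10 members per treatment with the highest RXR score; Klf7's exon peak, the CpG-poor genes and neighbouring peaks were picked after their values were seen.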

Additional observations from a re-analysis of the deposited data

How the results depend on the processing

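Of 86 odds ratios recomputed under other settings, 72 kept their direction and their side of the threshold, 8 kept only their direction and 6 reversed. This count also takes in ratios of CpG-poor against CpG-rich members. They are a different comparison from members against CpG-annotated peaks, and their labels say nothing about how firm the latter is. Counting a peak within 1 kb as shared gave 0.938 (GW3965), 1.12 (LG268) and 1.01 (RA) for control members called again, 0.965 for regions called in all 4 lists, and 1.10 (LG268) and 1.14 (RA) for RXR peaks, none past the threshold. Merging peaks within 1 kb gave 0.967 for regions in all 4 lists. Within the bins by score, members called again with LG268 had 0.889. With a distance of 500 bp or less, RXR peaks had 1.50 in control and 1.31 with LG268, neither past the threshold. The comparison of CpG-poor with CpG-rich members was chosen after seeing the data. Its RXR odds ratios were 0.436 (control), 0.894 (GW3965), 0.411 (LG268) and 0.647 (RA), none past the threshold. They are counted among the reversed ones, although they compare parts of the members and not members with CpG-annotated peaks. The cause of these differences between settings was not tested. Over the settings that set members against CpG-annotated peaks, the odds ratio of members called again ran from 0.399 to 0.938 with GW3965, 0.499 to 1.12 with LG268 and 0.456 to 1.01 with RA. Limiting CpG-annotated peaks to 1000 bp upstream to 100 bp downstream could not be run, because none lies there. No paired analysis was possible because each treatment has 1 H3K27ac library. The number of lists and the unknown read depth limit every share: a promoter not called in a list may still be acetylated there.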
